A study of Homo sapiens with 14 samples.

Results

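B-lineage leukemias are typed by the proteins on their surface, and 9 genes for such proteins are described here. They are CD22 and CD72, which encode inhibitory receptors, CD9 and CD37, which encode tetraspanins, MS4A1, which encodes CD20, CD24 and CD34, which encode mucin-like glycoproteins, and CD38 and MME (CD10), which encode ectoenzymes. The genes were chosen by name, and every probe set annotated with exactly 1 gene was kept where that gene was among the 9. This gave 19 probe sets out of 19070 with a single gene, and 9 genes out of 11963. The cells were RS4;11, an established human line of acute lymphoblastic leukemia from B-cell precursors with a rearranged KMT2A gene. All cells were first deprived of hormone for 48 h. Transcripts were then measured on 4 arrays of untreated cells, on 5 arrays after 8 h and on 5 arrays after 24 h in 10 nM dexamethasone, a synthetic glucocorticoid that activates the glucocorticoid receptor. Untreated cells were measured at the start alone, so longer culture and dexamethasone cannot be told apart. Whether the replicates were separate cultures is not given in the sources used here. The p-values therefore cover the array-to-array spread only, part or all of which may be technical, and all results come from 1 cell line.

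The values were log2 expression values, on which a difference of 1 is a 2-fold change. Dates in the labels, marked A and B where 2 arrays of a group share one, put the arrays into 5 runs on 4 days, with runs 1 and 2 on day 1. Whether a date is that of culture, extraction or hybridization is not given in the sources used here. Run 5 held no untreated array, and the other runs held an array of each group. Array medians were 6.03 to 6.05 for untreated cells, 6.03 to 6.09 at 8 h, and 6.07 to 6.11 at 24 h. The precision is limited by the number of arrays. Of 12 B-cell precursor markers, 10 had a single-gene probe set, and the log2 of their summed level was 14.30 to 14.43 in untreated cells, 14.15 to 14.26 at 8 h, and 14.33 to 14.50 at 24 h. VPREB1, which encodes part of the surrogate light chain, averaged 12.9 in untreated cells, and CD79A and CD79B, which encode the signaling chains of the B-cell receptor, averaged 9.64 and 9.57. The summed level is carried by the brightest genes of the list, which also holds for the lists that follow. By the test given below, 19.7% of all 11963 genes were called at 8 h against untreated cells and 40.5% at 24 h. Of the 10 genes, 0 were higher and 3 lower at 8 h against untreated cells, and 4 were higher and 4 lower at 24 h. Among the 4 higher ones were CD79B and CD79A, with log2 fold changes of 0.98 and 0.56. The 4 lower ones were the signaling adaptor gene BLNK (−2.21), DNTT, the terminal transferase (−1.80), IGLL1, the other part of the surrogate light chain (−0.58), and the recombinase gene RAG2 (−0.50), given as log2 fold changes with a highest adjusted p of 0.000343. The log2 of the summed level of 14 T and NK cell markers was 10.55 to 10.69 in untreated cells, 10.17 to 10.39 at 8 h, and 10.48 to 10.66 at 24 h. For 11 of 12 monocyte and granulocyte markers it was 7.53 to 7.75, 7.53 to 7.57, and 7.59 to 7.78 in the same order, and for 8 of 10 erythroid and platelet markers 7.85 to 8.04, 8.13 to 8.30, and 8.28 to 8.52. In the erythroid and platelet list 1 gene was higher and 1 lower at 24 h against untreated cells. Its brightest gene at 24 h, GP9, averaged 6.18 in untreated cells and 7.51 at 24 h. For 6 plasma cell markers the log2 of the summed level was 10.91 to 11.14 in untreated cells, 11.07 to 11.23 at 8 h, and 11.45 to 11.77 at 24 h. The 24 h arrays lay above the others, with 3 of the 6 higher and 2 lower at 24 h against untreated cells. The brightest of the 6, XBP1, averaged 10.85 in untreated cells and 11.54 at 24 h. The 2 lower ones were JCHAIN (−1.47) and TNFRSF17 (−0.86). No marker can be said to be at 0 on these arrays, which give every probe set a value, and the part of these markers in the results below was not tested.

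Surface markers of B cells appear and disappear in a set order as a precursor matures. CD34 marks the earliest stem and progenitor cells, CD10 and CD24 mark precursors, CD22 and CD72 accompany the lineage through most of its stages, and CD20 comes late, while CD38 is high on precursors and again on plasma cells. CD22 and CD72 carry inhibitory motifs in their cytoplasmic tails that recruit the phosphatase SHP-1 and dampen signals from the B-cell receptor. Leukemias with a rearranged KMT2A gene usually have an early precursor phenotype without CD10. CD20, CD22 and CD38 are also targets of therapeutic antibodies.

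The promoters of the 5 genes that changed between 24 h and untreated cells are printed because the glucocorticoid receptor acts through DNA elements. The sequences are from RefSeq (GRCh38.p14), and 7 of the 9 genes had a promoter in the table used. Each run is 250 bases before the most upstream annotated start, 5′ to 3′ on the strand of the gene. They lie at chr19:35328937-35329186 on the plus strand (CD22), chr4:15778078-15778327 on the plus strand (CD38), chr9:35618414-35618663 on the minus strand (CD72), chr6:106975628-106975877 on the minus strand (CD24) and chr12:6199696-6199945 on the plus strand (CD9). Capitals mark matches to 6 motifs searched on both strands, namely the palindromic glucocorticoid response element GNACANNNTGTNC, a single arm of it (AGAACA), the PU.1 core GAGGAA, the EBF1 motif TCCCNNGGGA, the E protein motif CAGGTG and the TATA box TATAAA.
CD22: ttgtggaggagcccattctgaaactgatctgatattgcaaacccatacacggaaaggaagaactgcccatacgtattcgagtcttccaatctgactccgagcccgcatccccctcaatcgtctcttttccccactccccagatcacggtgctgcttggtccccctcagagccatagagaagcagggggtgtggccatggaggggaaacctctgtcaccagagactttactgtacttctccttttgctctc
CD38: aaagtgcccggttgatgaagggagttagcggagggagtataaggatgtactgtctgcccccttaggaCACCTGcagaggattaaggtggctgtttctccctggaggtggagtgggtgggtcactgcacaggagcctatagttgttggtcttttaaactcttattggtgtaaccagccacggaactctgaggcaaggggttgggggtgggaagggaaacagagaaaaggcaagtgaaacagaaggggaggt
CD72: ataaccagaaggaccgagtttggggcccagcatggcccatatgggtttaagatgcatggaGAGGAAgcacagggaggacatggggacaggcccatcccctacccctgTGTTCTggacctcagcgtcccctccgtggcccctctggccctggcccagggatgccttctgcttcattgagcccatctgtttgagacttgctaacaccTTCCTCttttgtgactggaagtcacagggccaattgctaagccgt
CD24: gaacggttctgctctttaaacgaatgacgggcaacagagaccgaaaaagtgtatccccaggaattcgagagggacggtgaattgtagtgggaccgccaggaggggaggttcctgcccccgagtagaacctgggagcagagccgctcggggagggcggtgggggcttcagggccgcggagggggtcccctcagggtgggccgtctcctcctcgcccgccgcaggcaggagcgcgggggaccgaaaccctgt
CD9: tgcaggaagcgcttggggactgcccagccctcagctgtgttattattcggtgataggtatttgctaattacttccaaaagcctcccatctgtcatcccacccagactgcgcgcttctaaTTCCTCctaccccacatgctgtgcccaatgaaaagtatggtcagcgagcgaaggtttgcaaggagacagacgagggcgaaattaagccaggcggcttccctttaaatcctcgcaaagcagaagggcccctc

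None of these 5 windows held the whole response element, which 0.328% of 35114 annotated promoter windows of the same length held. The CD72 window held the single arm, as TGTTCT, with its first base 143 bases before the start, and PU.1 motifs beginning 190 and 45 bases before it. The CD9 window held 1 PU.1 motif that began 131 bases before the start, and the CD38 window held 1 E protein motif, as CACCTG, that began 183 bases before it. The CD22 and CD24 windows shown held no match. Of all windows, 12.4% held the single arm, 23.6% the PU.1 motif and 17.5% the E protein motif. Over the 15 annotated windows of the 7 genes, 2 held the single arm, 4 the PU.1 motif, 5 the E protein motif, 1 the EBF1 motif (1.06% of all windows) and 0 the TATA box (10.7%). Windows of 1 gene can overlap, and 1 E protein site of MME was counted in 2 windows. The single EBF1 match lay in a window of CD24 that starts further downstream. A match is a description of these letters and not of a bound site.

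A single limma model was fitted to all 14 arrays, and a gene was called where its Benjamini-Hochberg adjusted p was below 0.05. Dexamethasone-treated cells had less CD22 and CD38 transcript than untreated cells at both times, less CD37 at 8 h, and more CD72, CD24 and CD9 at 24 h. MS4A1, MME and CD34 did not pass the test at either time. At 24 h the fitted log2 fold changes against untreated cells were 0.60 for CD72, 0.41 for CD24, 0.25 for CD9, −0.36 for CD22 and −0.50 for CD38. None of the 9 genes changed 2-fold, while 1.81% of all genes at 8 h and 6.59% at 24 h against untreated cells, and 2.07% between 24 h and 8 h, were called with at least a 2-fold change. Because RNA was extracted in bulk, fewer cells with a transcript and less of it per cell cannot be told apart.

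The genes that passed the variance filter are the base of the calls, and 7 of the 9 genes did so. CD34 and CD38 missed it, CD38 with an interquartile range of 0.283 where 0.285 was needed, so they are given from the same model without the filter. Because the filter keeps genes that vary between arrays, the counts over the 7 are a description. At 8 h against untreated cells, 2 of the 7 were called, CD22 and CD37, both lower, where 34.5% of 6763 genes were called and 18.6% were called lower. In the model blocked by run, 4 of the 7 were called at 8 h, CD72 higher and CD22, CD37 and CD9 lower. That model called more of all genes too, 3141 of 6763, with 1430 higher and 1711 lower. At 24 h against untreated cells, 4 of 7 were called, 3 higher and 1 lower, where 63.4% of genes were called, 30.7% higher and 32.8% lower. Between 24 h and 8 h, 4 of 7 were called, all higher, where 47.9% of genes were called and 24.3% were called higher. Without the filter all 9 genes could be counted. Then 0 were higher and 3 lower at 8 h, where 19.7% of 11963 genes were called, 8.69% higher and 11% lower. At 24 h, 3 were higher and 2 lower, where 40.5% were called, 19.5% higher and 20.9% lower. Between 24 h and 8 h, 3 were higher and 0 lower, where 28.3% were called, 14.6% higher and 13.7% lower. The comparisons with untreated cells share the 4 untreated arrays.

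**Figure D1:**
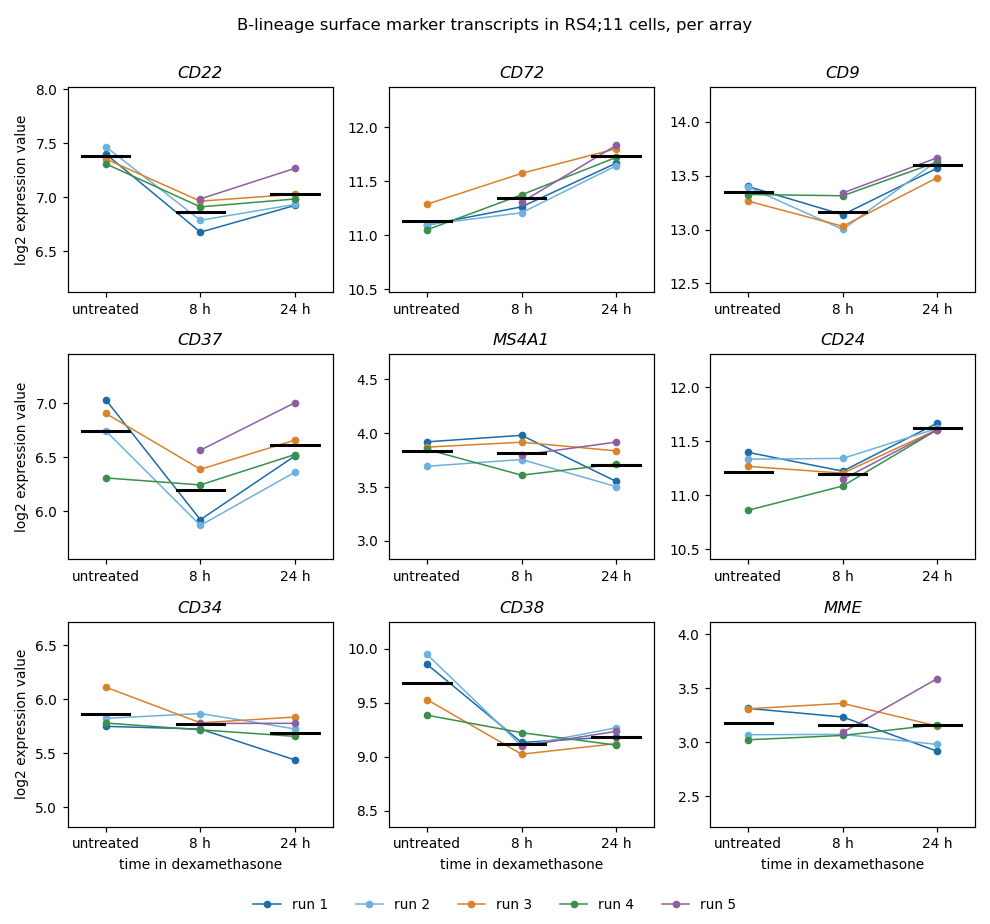
Log2 expression value (y axis, of equal height in every panel) of each gene against time in dexamethasone (x axis), with 1 point per array, lines joining the arrays of a run, and black bars at the mean of a group (n = 4 untreated, 5 at 8 h, 5 at 24 h). CD22 and CD38 lie lower on every treated array than on any untreated array, and CD72, CD24 and CD9 lie higher on every 24 h array than on any other array.

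**Figure D2:**
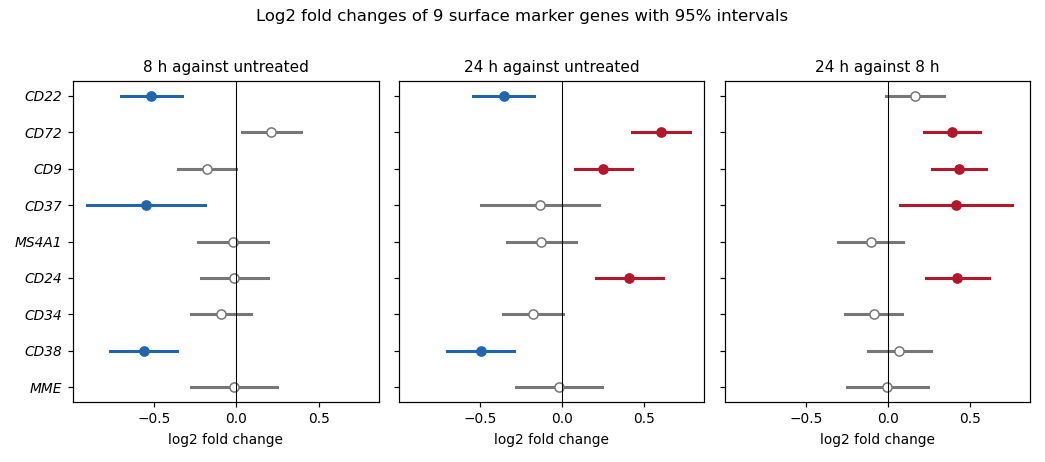
Log2 fold change (x axis) of each gene (y axis) in the 3 comparisons from limma, with 95% intervals as bars; filled blue points were called lower, filled red points higher, and open points did not pass at an adjusted p of 0.05. CD22, CD37 and CD38 are filled blue at 8 h, and CD72, CD9 and CD24 are filled red at 24 h.

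The inhibitory receptors CD22 and CD72 had changed in opposite directions at 24 h against untreated cells. CD22, a lectin of the Siglec family that binds sialic acid, had log2 values of 7.40, 7.47, 7.35 and 7.31 in untreated cells in runs 1 to 4. At 8 h the values were 6.68, 6.79, 6.96, 6.91 and 6.98 in runs 1 to 5, and at 24 h they were 6.92, 6.93, 7.03, 6.98 and 7.27. All treated arrays lay below all untreated arrays, and the 8 h and 24 h values overlapped. CD22 fell by 0.52 on the log2 scale at 8 h (SE 0.09, adjusted p = 0.00026 from limma), to 0.698 of its untreated level. At 24 h it was still lower than in untreated cells, at −0.36 (SE 0.09, adjusted p = 0.00206), or 0.781 of the untreated level. The difference between 24 h and 8 h, 0.16 (95% interval −0.01 to 0.34), did not pass (adjusted p = 0.12) but did so in the model blocked by run (adjusted p = 0.0398). In each of the 5 runs the 24 h value was above the 8 h value, by 0.06 to 0.28.

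The fall of CD22 was also seen on day 1 and on days 2 to 4 fitted apart. On day 1 alone the log2 fold change was −0.70 at 8 h and −0.51 at 24 h. On days 2 to 4 it was −0.38 and −0.24, with a highest adjusted p of 0.043 over both fits. The fit of days 2 to 4, here and below, pooled these days and took in run 5, which has no untreated array. Within runs, the 24 h value was below the untreated value in 4 of 4 runs, with differences of −0.53 to −0.33. The difference between the days was not tested.

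CD22 was measured by 4 probe sets, which did not all behave alike. In the fit over probe sets, 38521_at had 9.38, 9.40, 9.33 and 9.21 on untreated arrays, 8.76 to 8.94 at 8 h and 8.85 to 9.20 at 24 h, with log2 fold changes of −0.51 (adjusted p = 0.000128) and −0.35 (adjusted p = 0.00129). For 204581_at they were −0.62 (adjusted p = 0.000957) and −0.50 (adjusted p = 0.00186). For 217422_s_at they were −0.74 (adjusted p = 0.0038) and −0.56 (adjusted p = 0.0108). These 3 probe sets fell at both times. The fourth, 220674_at, was at −0.21 (adjusted p = 0.598) and −0.02 (adjusted p = 0.968) and had 5.67 to 6.10 in untreated cells, 5.23 to 6.08 at 8 h and 5.36 to 6.29 at 24 h. Its values at 8 h were low on both arrays of day 1, 5.23 and 5.28, and 5.97 to 6.08 on the other 3 arrays. Over the 14 arrays the correlations between pairs of CD22 probe sets ranged from −0.23 to 0.89 (6 pairs), on arrays that share their groups and runs.

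CD72, a C-type lectin receptor whose ligands include semaphorin 4D, had the largest rise among the 9 genes at 24 h. In the order of the runs, untreated cells had log2 values of 11.09, 11.10, 11.29 and 11.05. Cells treated for 8 h had 11.26, 11.21, 11.57, 11.37 and 11.31, and cells treated for 24 h had 11.67, 11.64, 11.80, 11.72 and 11.83. All 24 h arrays lay above all other arrays, while the 8 h values overlapped those of untreated cells. CD72 rose by 0.60 at 24 h against untreated cells (SE 0.08, 1.52-fold, adjusted p = 1.2e-05) and by 0.39 between 24 h and 8 h (SE 0.08, adjusted p = 0.000847). On day 1 and on days 2 to 4 the rise at 24 h was 0.56 and 0.62. At 8 h the log2 fold change of 0.21 (95% interval 0.03 to 0.39) did not pass (adjusted p = 0.0628). In the model blocked by run it was 0.21 and passed (adjusted p = 0.0145), and all 4 runs with an untreated array had the higher value at 8 h, by 0.11 to 0.32.

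Other genes for inhibitory receptors and their signaling proteins changed in both directions at 8 h. Of 20 measured on such a list without CD22 and CD72, 3 were higher and 5 lower at 8 h against untreated cells. At 24 h, 7 were higher and 3 lower against untreated cells, and between 24 h and 8 h, 10 were higher and 0 lower. Of all 11963 genes, 19.7% were called at 8 h, 40.5% at 24 h and 28.3% between 24 h and 8 h. The median log2 fold changes of the list were −0.09, 0.08 and 0.24, beside −0.02, −0.02 and 0.003 over all genes. LILRB2 (2.82), LAIR1 (1.56) and LILRB1 (0.98), which encode inhibitory receptors of the immunoglobulin superfamily, rose by these log2 fold changes at 24 h (highest adjusted p = 3.72e-06). PTPN6, which encodes SHP-1, the phosphatase recruited by both CD22 and CD72, rose by 0.38 at 24 h (SE 0.08, adjusted p = 0.000629) and was at 0.18 at 8 h (adjusted p = 0.133). LYN, whose kinase phosphorylates the tails of both receptors, fell by 0.21 at 8 h (adjusted p = 0.0326), was at 0.13 at 24 h against untreated cells (adjusted p = 0.125), and rose by 0.34 between 24 h and 8 h (adjusted p = 0.000472). INPP5D, which encodes the phosphatase SHIP1, fell by 0.30 at 8 h (adjusted p = 0.0285) and rose by 0.46 between 24 h and 8 h (adjusted p = 0.000652).

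Genes for known ligands and partners of the 9 proteins changed in both directions at 24 h against untreated cells. Of 16 measured, 0 were higher and 3 lower at 8 h, and 4 were higher and 3 lower at 24 h against untreated cells. Between 24 h and 8 h, 5 were higher and 0 lower, and the medians in the same order were −0.04, 0.06 and 0.05. The shares called over all genes were 19.7%, 40.5% and 28.3%. SEMA4D, which encodes the semaphorin that binds CD72, was at 0.03 at 8 h (adjusted p = 0.854) and rose by 0.38 at 24 h (SE 0.08, adjusted p = 0.00115). ST6GAL1, which encodes the sialyltransferase that makes the ligand of CD22, rose by 0.22 at 24 h (SE 0.06, adjusted p = 0.0112). ITGA4, which encodes an integrin chain found in complexes with tetraspanins, fell by 0.91 at both 8 h and 24 h (highest adjusted p = 4.86e-07). PODXL, which encodes a sialomucin related to CD34, fell by 0.73 at 24 h (SE 0.12, adjusted p = 0.000136).

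CD9 and CD37 are tetraspanins, which organize other membrane proteins into microdomains. The untreated arrays of runs 1 to 4 had CD9 values of 13.40, 13.39, 13.26 and 13.32. The 8 h arrays of runs 1 to 5 had 13.14, 13.00, 13.03, 13.31 and 13.34, and the 24 h arrays 13.57, 13.64, 13.48, 13.62 and 13.66. The 24 h arrays lay above all others, and on 3 of the 5 arrays at 8 h, those of runs 1 to 3, CD9 was below every untreated array. CD9 rose by 0.25 at 24 h against untreated cells (SE 0.08, 1.19-fold, adjusted p = 0.0146) and by 0.43 between 24 h and 8 h (SE 0.08, adjusted p = 0.000313). The rise at 24 h was 0.21 on day 1 and 0.30 on days 2 to 4, both called. At 8 h the log2 fold change of −0.18 (95% interval −0.36 to −0.01) did not pass (adjusted p = 0.107), and in the model blocked by run it was −0.21 and passed (adjusted p = 0.0202). It was −0.33 on day 1 (adjusted p = 0.0142) and −0.07 on days 2 to 4 (adjusted p = 0.646).

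CD37, which is found mainly on mature B cells, had the widest spread among arrays of a group of the genes called. In run order it was 7.03, 6.74, 6.91 and 6.31 without dexamethasone. After 8 h it was 5.92, 5.87, 6.39, 6.24 and 6.57, and after 24 h it was 6.51, 6.36, 6.66, 6.53 and 7.01. All 3 groups overlapped, the low untreated value being that of run 4 and the high values at 8 h and 24 h those of run 5, which has no untreated array. CD37 fell by 0.55 at 8 h (SE 0.17, adjusted p = 0.0197 from limma), to 0.683 of the untreated level. At 24 h it was at −0.13 against untreated cells (95% interval −0.50 to 0.23, adjusted p = 0.514), and it rose by 0.42 between 24 h and 8 h (SE 0.16, adjusted p = 0.0421).

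These calls of CD37 varied with the model, the arrays and the days used. In the model blocked by run, CD37 fell by 0.65 at 8 h (adjusted p = 0.00152). It rose by 0.42 between 24 h and 8 h in that model (adjusted p = 0.00887). On day 1 the log2 fold change at 8 h was −0.99 (adjusted p = 0.000627), and on days 2 to 4 it was −0.21 (adjusted p = 0.411). At 24 h against untreated cells it was −0.45 on day 1 (adjusted p = 0.00921) and 0.12 on days 2 to 4 (adjusted p = 0.586). Run by run it was −0.52 to 0.22 at 24 h, and negative in 3 of 4 runs. Without untreated replicate 1 the change at 8 h was −0.46 (adjusted p = 0.0723), and without untreated replicate 3 it was −0.50 (adjusted p = 0.0555). Without untreated replicate 4 it was −0.70 (adjusted p = 0.00479). Within runs, the 8 h value was lower than the untreated value in 4 of 4 runs, with differences of −1.11 to −0.06, and the 24 h value was above the 8 h value in 5 of 5 runs, by 0.27 to 0.59. Without the variance filter the rise between 24 h and 8 h had an adjusted p of 0.0609.

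MS4A1 encodes CD20, a target of rituximab that appears late in B-cell development. On its probe set 210356_x_at, which passed the filter, its values were 3.69 to 3.92 in untreated cells, 3.61 to 3.98 at 8 h, and 3.50 to 3.92 at 24 h. The groups overlapped, with log2 fold changes of −0.02 (adjusted p = 0.9) at 8 h and −0.13 (95% interval −0.34 to 0.08, adjusted p = 0.282) at 24 h against untreated cells. The other probe set, 217418_x_at, was at 0.02 and 0.0003. The correlation between both probe sets over the 14 arrays was 0.22. Between 24 h and 8 h the change was −0.11 (adjusted p = 0.386), with −0.34 on day 1 (adjusted p = 0.0343) and 0.05 on days 2 to 4 (adjusted p = 0.685).

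Among 24 other tetraspanin genes, 4 were higher and 1 lower at 8 h, and 9 were higher and 2 lower at 24 h against untreated cells. The median log2 fold changes were −0.005 and 0.04. Over all genes, 19.7% were called at 8 h and 40.5% at 24 h. CD53, which encodes a leukocyte tetraspanin, had 11.68 to 11.74 in untreated cells, 12.73 to 12.92 at 8 h and 13.06 to 13.11 at 24 h, without overlap between the groups. CD53 (1.38), TSPAN14 (1.02), TSPAN31 (0.84) and the lysosomal CD63 (0.73) rose by these log2 fold changes at 24 h (highest adjusted p = 1.67e-07). CD81, which encodes a partner of CD9, rose by 0.20 at 24 h (adjusted p = 0.0376). Of 5 other genes of the MS4A family, 1 was higher and 1 lower at 24 h, with MS4A4A at 2.42 (adjusted p = 1.16e-08) and MS4A5 at −0.17 (adjusted p = 0.0248). MS4A5 averaged 3.74 in untreated cells and 3.58 at 24 h, and whether its signal is above background is not known here. MS4A6A (0.05, adjusted p = 0.781) and MS4A12 (0.03, adjusted p = 0.798) did not pass.

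CD24, a small glycoprotein anchored by a lipid that binds Siglec-10 and P-selectin, rose between 8 h and 24 h. The mean over its 6 probe sets was 11.40, 11.33, 11.27 and 10.86 on the untreated arrays, in run order. On the 8 h arrays it was 11.22, 11.34, 11.20, 11.09 and 11.15, and on the 24 h arrays 11.67, 11.62, 11.61, 11.61 and 11.61. The 24 h arrays lay between 11.61 and 11.67, above all others, and untreated replicate 4, of run 4, lay lowest. CD24 rose by 0.41 at 24 h against untreated cells (SE 0.10, 1.33-fold, adjusted p = 0.00148) and by 0.42 between 24 h and 8 h (SE 0.09, adjusted p = 0.00126). At 8 h it was at −0.01 (95% interval −0.22 to 0.19, adjusted p = 0.931). The rise at 24 h was 0.28 on day 1 and 0.54 on days 2 to 4, both called, and 0.29 without untreated replicate 4 (adjusted p = 0.00328).

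The 6 probe sets of CD24 rose by different amounts at 24 h, and 5 of them passed. The log2 fold changes were 0.51 for 266_s_at, 0.49 for 216379_x_at, 0.46 for 208651_x_at, 0.44 for 209771_x_at and 0.31 for 208650_s_at (highest adjusted p = 0.0338). The value of 209772_s_at was 0.23 (adjusted p = 0.4). That probe set had 9.83, 9.81, 9.45, 9.41 and 9.35 at 24 h, against 9.73, 9.61, 9.26 and 8.76 in untreated cells, with the arrays of runs 1 and 2 highest in both groups. Correlations between pairs of CD24 probe sets ranged from 0.42 to 0.99 (15 pairs). Probe sets ending in _x_at or _s_at can detect several transcripts, and CD24 has near-identical copies elsewhere in the genome, so the source of its signal is uncertain.

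**Figure D3:**
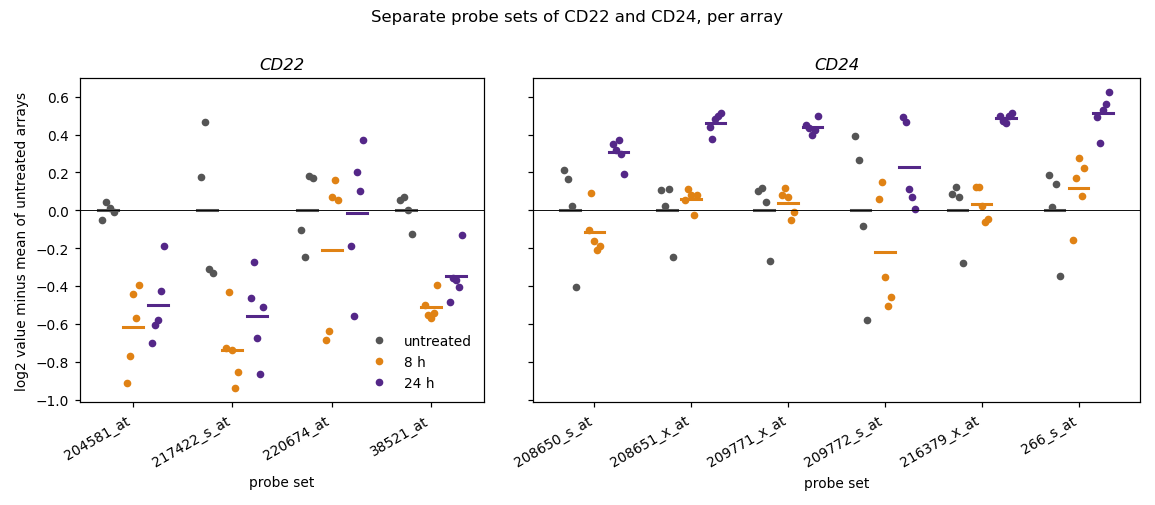
Log2 value minus the mean of the untreated arrays (y axis) for each probe set (x axis) of CD22 and CD24, with 1 point per array and bars at the mean of a group. The 8 h and 24 h points of 3 CD22 probe sets lie below 0, and those of 220674_at spread around it. The 24 h points of 266_s_at, 216379_x_at, 208651_x_at and 209771_x_at lie above all untreated points.

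CD34, a sialomucin of stem and progenitor cells, had 5.75, 5.82, 6.11 and 5.78 on the untreated arrays of runs 1 to 4. Values after 8 h were 5.72, 5.87, 5.78, 5.72 and 5.77, and those after 24 h were 5.44, 5.72, 5.83, 5.65 and 5.78. The groups overlapped. In the fit without the variance filter the log2 fold change was −0.09 at 8 h (95% interval −0.28 to 0.09, adjusted p = 0.56) and −0.18 at 24 h (95% interval −0.36 to 0.004, adjusted p = 0.119). Blocked by run, the value at 24 h was −0.19 and passed (adjusted p = 0.031), and it was below the untreated value in 4 of 4 runs, with differences of −0.31 to −0.10. CD34 is measured by 1 probe set, and the values carry no detection call, so whether its signal is above background is not known here, which also holds for MS4A1 and MME.

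CD38 encodes an enzyme that makes cyclic ADP-ribose from NAD and degrades it. Untreated cells had log2 values of 9.86, 9.95, 9.53 and 9.39 in runs 1 to 4. The values of runs 1 to 5 were 9.13, 9.10, 9.02, 9.22 and 9.10 at 8 h, and 9.19, 9.27, 9.12, 9.11 and 9.24 at 24 h. All treated arrays lay below all untreated arrays. The treated arrays spanned 9.02 to 9.27 and the untreated arrays 9.39 to 9.95. In the fit without the variance filter CD38 fell by 0.56 at 8 h (SE 0.10, adjusted p = 0.00045), to 0.676 of the untreated level. At 24 h the log2 fold change was −0.50 (SE 0.10, adjusted p = 0.000478), and between 24 h and 8 h it was 0.07 (95% interval −0.12 to 0.26, adjusted p = 0.681). On day 1 the log2 fold changes were −0.79 at 8 h and −0.68 at 24 h, and on days 2 to 4 they were −0.34 and −0.30. Each of these 4 values was called, and the difference between the days was not tested. The untreated values of day 1 were 9.86 and 9.95, and those of runs 3 and 4 were 9.53 and 9.39.

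MME encodes CD10, a peptidase and the common antigen of acute lymphoblastic leukemia. Its probe set 203434_s_at had 3.02 to 3.31 in untreated cells, 3.06 to 3.36 at 8 h and 2.92 to 3.59 at 24 h, and 203435_s_at had 5.37 to 5.57, 5.34 to 5.78 and 5.29 to 5.70. All groups overlapped. On the first, which passed the filter, the log2 fold change was −0.01 at 8 h (95% interval −0.28 to 0.25) and −0.02 at 24 h (95% interval −0.28 to 0.24, adjusted p = 0.902). The correlation of the probe sets over the 14 arrays was 0.14.

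Of 15 other ectoenzyme genes, 1 was higher and 1 lower at 8 h, and 4 were higher and 1 lower at 24 h against untreated cells. Their median was 0.003 at 8 h and 0.01 at 24 h. The share called over all genes was 19.7% at 8 h and 40.5% at 24 h. At 24 h, ENPEP (1.06) and ANPEP (0.50), which encode aminopeptidases, and ADAM17 (0.59), which encodes a sheddase of surface proteins, rose (highest adjusted p = 0.00544). ANPEP averaged 3.87 in untreated cells and 4.37 at 24 h, and ENPEP 4.13 and 5.19. Whether their signal is above background is not known here. ADA, which encodes adenosine deaminase, fell by 0.99 (adjusted p = 4.16e-06). BST1, the neighbor and paralog of CD38, was at −0.01 at 8 h (adjusted p = 0.97) and −0.11 at 24 h (adjusted p = 0.259).

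Among the 19 probe sets, 5 were called at 8 h against untreated cells, where 16.9% of all 19070 probe sets were, and all 5 were lower. At 24 h 11 of 19 were called, where 37.1% of all were, and between 24 h and 8 h 7 of 19, where 24.9% were. CD22 and CD24 hold 10 of the 19, so these counts are not counts of separate genes.

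Placed among all 11963 genes by log2 fold change without the filter, the 9 genes spread over both sides of the middle. At 8 h, 2.79%, 2.97% and 3.44% of genes were at or below CD38, CD37 and CD22, and 88.6% were at or below CD72. At 24 h against untreated cells 93.1% were at or below CD72, 88.5% at or below CD24, 82.1% at or below CD9, 14.7% at or below CD22 and 10.7% at or below CD38. Between 24 h and 8 h, CD9, CD24, CD37 and CD72 lay between 93.1% and 94.3%. The median of the 9 was −0.09 at 8 h, −0.06 at 24 h and 0.16 between 24 h and 8 h. The groups did not overlap for 2 genes at 8 h (18.2% of all genes), for 5 at 24 h (35.3%) and for 3 between 24 h and 8 h (22.4%).

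**Figure D4:**
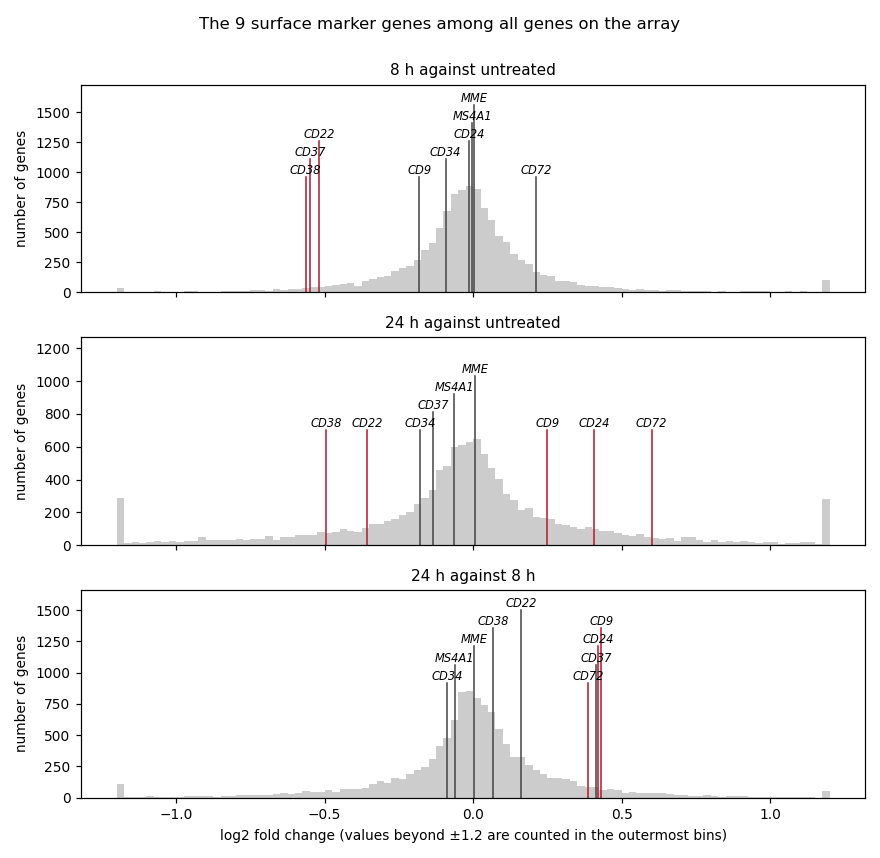
Number of genes (y axis) by log2 fold change (x axis) for all 11963 genes in the 3 comparisons, from the fit without the variance filter, with a vertical line for each of the 9 genes, red where it was called and dark gray where it was not; line height only separates the names. CD38, CD37 and CD22 lie in the lower tail at 8 h, and CD72, CD24 and CD9 in the upper part at 24 h.

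Of 38 other surface markers used in leukemia typing, 9 were higher and 4 lower at 8 h, 17 were higher and 6 lower at 24 h against untreated cells, and 15 were higher and 3 lower between 24 h and 8 h. Their medians were 0.002, 0.11 and 0.09. Of all genes, 8.69% were called higher and 11% lower at 8 h, and 19.5% higher and 20.9% lower at 24 h. Between 24 h and 8 h, 14.6% of all genes were called higher and 13.7% lower. CD52, which encodes the target of alemtuzumab, averaged 7.09 ± 0.44 in untreated cells (SD, n = 4), 8.66 ± 0.45 at 8 h and 10.53 ± 0.21 at 24 h (SD, n = 5 each). CD99, which encodes an adhesion glycoprotein, rose by 1.62 at 24 h (adjusted p = 1.18e-09). CD79B (0.98) and CD79A (0.56) rose by these log2 fold changes at 24 h (highest adjusted p = 0.000264). The 6 genes of this list that were lower at 24 h were CSPG4 (−2.00), TFRC, the transferrin receptor gene (−1.002), ITGA4 (−0.91), CD48 (−0.89), TNFRSF17 (−0.86) and CD83 (−0.84), with a highest adjusted p of 0.000188.

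Of 28 B-lineage transcription factors measured, 4 were higher and 7 lower at 8 h, 9 were higher and 6 lower at 24 h against untreated cells, and 13 were higher and 1 lower between 24 h and 8 h. Their medians were −0.09, 0.09 and 0.18. Among all genes, 19.7%, 40.5% and 28.3% were called in these comparisons. PAX5, which encodes the factor that commits cells to the B lineage, was at 0.004 at 8 h (adjusted p = 0.977) and 0.05 at 24 h (adjusted p = 0.57), and EBF1 had no single-gene probe set. FOXO1 (1.32) and XBP1 (0.70) rose at 24 h, and TCF4 (−0.53) and BCL6 (−0.85) had negative log2 fold changes, with a highest adjusted p of 5.2e-05 for the 4 genes.

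The genes whose log2 values followed each of the 9 most closely over the 14 arrays are given as a description, since all arrays share the same groups and runs. For CD72 they were ZBTB18 (Pearson's r = 0.98) and WDR45B (0.98), and for CD38 they were CLEC2D (0.98) and CEBPB (0.97). For CD22 they were KIF21B (0.96) and GNAZ (0.95), and for CD24 GABARAP (0.97) and CORO1B (0.94). For CD9 they were TNS1 (0.94) and TGIF1 (0.93), and for CD37 GP5 (0.92) and ADARB1 (0.92). The closest genes were less alike for the remaining 3 markers, at 0.80 (CARD10) and 0.79 (MATN1) for MS4A1, 0.76 (CHML) and 0.75 (SFN) for CD34, and 0.75 (MS4A1) and 0.73 (IL1RL1) for MME. Among the 9 genes themselves, CD22 correlated with CD38 (0.82) and CD37 (0.80), and CD24 with CD72 (0.73) and CD9 (0.65).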

How the data were processed

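RNA of RS4;11 cells was hybridized to 14 arrays, which the authors summarized with RMA in the affy package (version not given in the sources used here). The deposited log2 values cover 22277 probe sets, before the authors' variance filter, and 1 untreated array that they left out after quality control was not analysed here. The labels name an Affymetrix protocol and the study's methods Agilent arrays, while the probe sets carry Affymetrix names. Samples were grouped by their titles. Probe sets with exactly 1 gene were kept, the less variable part (interquartile range over the 14 arrays up to its 0.5 quantile) was removed, and the mean was taken per gene, which left 9535 probe sets and 6763 genes. Symbols were looked up by gene ID for 19058 probe sets.

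Groups were compared with limma 3.58.1 (lmFit and eBayes, R 4.3.3) in 1 model over all arrays without a block, with Benjamini-Hochberg adjustment across all genes of a comparison. Probe sets were fitted without the filter, and lists of other genes were counted without it. The 9 genes, the lists, the rule for named genes and the alternatives were chosen with earlier results of these data known. The rule names all 9 genes and their probe sets, for each the 2 genes with the closest values, and of each list the up to 4 genes with the smallest adjusted p at 24 h, with PAX5, EBF1, SEMA4D, ST6GAL1 and PTPN6. A gene of the rule is not reported here. LYN, INPP5D, CD81, CD79A, CD79B, VPREB1, BST1 and GP9 were named after their values were seen. So were the genes named as lower in the B-cell precursor, plasma cell and surface marker lists. Runs were read from the dates and letters in the labels and pair the samples on that basis. Residuals of arrays of the same run correlated with r of 0.376 to 0.640 in 13 pairs. Those of another run and group had r of −0.571 to 0.600 in 52 pairs, so the ranges overlap. The 52 pairs include those between runs 1 and 2, which share day 1. The alternatives were other filters (on variance or on dim probe sets), scalings, blocks and weights. Others were day 1 alone, days 2 to 4 alone, and each array left out in turn. The model was tested on simulated data with independent arrays, a setting that does not cover correlation within runs. No 2 arrays held the same values.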

Additional observations from a re-analysis of the deposited data

Results flagged for a closer look

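Each of 69 groups of 4 or 5 arrays held 1 gene or probe set at 1 time. The gap between its highest or lowest array and the next was compared with the range of the group. By this rule 3 stood apart, where chance flags about 1 in 20. The groups are not separate, as CD22, CD24, MME and MS4A1 were tested both per gene and per probe set. CD24 in 24 h replicate 1 was at 11.67, against 11.61 to 11.62 on the other 24 h arrays. The CD24 probe set 216379_x_at in untreated replicate 4 was at 12.27, against 12.62 to 12.66 on the other untreated arrays. The MS4A1 probe set 217418_x_at in 8 h replicate 4 was at 3.63, against 3.78 to 3.84 on the other 8 h arrays.

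For 4 genes the change from untreated cells differed between 24 h and 8 h by the limma test of 24 h against 8 h. The change at 24 h minus that at 8 h was 0.42 for CD24, 0.39 for CD72, 0.43 for CD9 and 0.42 for CD37. CD24 and CD72 had no called change at 8 h and were higher at 24 h, CD9 was at −0.18 at 8 h and 0.25 at 24 h, and CD37 was lower at 8 h and at −0.13 at 24 h. The difference held in 5 of 5 runs for each of the 4 genes.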

How the results depend on the processing

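Changes of the 9 genes kept their direction where called, and of 792 alternative values 755 kept their side of the threshold, 22 passed newly and 15 no longer passed. The 15 were all of CD37, 12 between 24 h and 8 h and 3 at 8 h. The count of genes called at 8 h against untreated cells was 2 of 7, both lower. It was 4 of 7, 1 higher and 3 lower, with the run, the title number, the day or the run as a random block. On days 2 to 4 alone it was 1 of 7, and with each array left out in turn it was 1 to 3. With a filter on dim probe sets it was 4 of 8, on another base that takes in CD38. With the replicate block by run, 8 probe sets of the 9 genes were called at 8 h in place of 5. The block by title number, whose numbers do not follow the runs, gave CD72 at 0.21 (adjusted p = 0.0155) and CD9 at −0.20 (adjusted p = 0.0306) at 8 h. Blocks by run, day or title number changed calls of CD72 and CD9 at 8 h, CD34 at 24 h and CD22 between 24 h and 8 h, and no other call of the 9 genes. Over all genes, array weights gave 4121 calls at 8 h in place of 2335, and a filter at the 0.75 quantile gave 2854 of 3547 at 24 h in place of 4289 of 6763. MS4A1, MME, CD9, CD34 and CD38 gave no value under some filters. The number of arrays limits the precision, and the RMA values carry no detection call.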
